A study of Mus musculus with 3 samples.

Results

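The MHC class II presentation genes followed here were H2-Aa, H2-Ab1, H2-Eb1, Cd74, Ciita, H2-DMa and H2-DMb1. They were chosen by symbol and matched by Ensembl ID, and all 7 were present among the 30406 genes listed for every library. The measurements were single-nucleus RNA counts from whole mouse corneas in 3 libraries, each pooled from 5 mice at 7 weeks of age: untreated wild-type mice (WT), untreated Aire knockout mice (KO), and Aire knockout mice that received 14 days of phosphate-buffered saline (KO_PBS). Loss of Aire, which lets the thymus show tissue antigens to developing T cells, was thus shared by KO and KO_PBS, and there was no wild-type library with PBS. The series text gives another age and treatment day and names a lacripep arm, which was not analysed here. The knocked-out allele, the strain and the sex were not given in the sources used here.

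Each group was 1 pooled library and so had no replicates, and no p-values are given. Intervals are exact 95% Poisson or binomial intervals and cover counting error only, not differences between animals. A gene was counted as higher or lower between 2 sets of barcodes by a rule of size: at least 50 UMIs (unique molecular identifiers, 1 per captured RNA molecule) in all, a fold of at least 2 and intervals that did not overlap. Levels are in CPM, the UMIs of a gene per 1000000 UMIs of the shared gene list.

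MHC class II molecules are surface proteins that show peptides from the endosome to CD4 T cells. An alpha and a beta chain (H2-Aa with H2-Ab1 for I-A, and H2-Eb1 as the beta chain of I-E) fold around the invariant chain encoded by Cd74, which blocks the peptide groove until it is cut in the endosome, and H2-DM (H2-DMa with H2-DMb1) then exchanges its remnant for other peptides. Ciita encodes the coactivator that switches these genes on, by joining the RFX, CREB and NF-Y complexes that sit on the X and Y boxes of their promoters. Dendritic cells, macrophages and B cells carry class II molecules without stimulation, and interferon gamma can induce Ciita in many other cell types.

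The promoter stretches around the Y box are shown for 2 of the 7 genes and for H2-Ob, the beta chain of the H2-DM inhibitor H2-O, because the complexes that Ciita joins bind in this part of class II promoters. Each is 70 bases from the RefSeq promoter table for GRCm38.p6, from base -105 to base -36 relative to the gene start in that table (base 0), written 5′ to 3′ on the strand of the gene. Capitals mark the Y box ATTGG, the X box cores CCTNGNNAC and GNAACNGA, and the X2 box TGACG with its reverse complement. The stretches lie at chr17:34287859-34287928 on the minus strand for H2-Aa and, on the plus strand, at chr17:34305762-34305831 for H2-Eb1 and chr17:34238800-34238869 for H2-Ob.
H2-Aa: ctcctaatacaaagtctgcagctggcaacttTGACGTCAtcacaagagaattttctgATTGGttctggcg
H2-Eb1: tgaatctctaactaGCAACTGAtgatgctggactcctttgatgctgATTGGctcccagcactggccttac
H2-Ob: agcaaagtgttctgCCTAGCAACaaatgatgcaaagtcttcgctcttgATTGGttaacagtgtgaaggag

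The Y box began at base -48 in H2-Aa, -59 in H2-Eb1, -61 in H2-DMb1 and -57 in H2-Ob. An X box core lay upstream of it at -91 in H2-Eb1, at -98 in H2-DMb1 and at -91 in H2-Ob. The H2-Aa stretch held an X2 box at -74 and neither core. Further class II chains that were searched did not all share this order. H2-Eb2 had a core at -132 and a Y box at -100, and H2-DMb2 a Y box at -90 and neither core. H2-Oa had a Y box at -43 and a core only downstream of it, at -4. H2-DMb1 is not shown because its table start (34153191) lies inside the gene as GENCODE M21 draws it. Its boxes thus fall inside the annotated gene there. Searched on both strands of all 32851 promoters of 300 bases in the table, ATTGG was found in 37.4%, CCTNGNNAC in 15.8%, GNAACNGA in 14.2%, TGACG in 20.8%, and a core together with ATTGG in 10.1%. The table held promoters for 4 of the 7 genes, and the remaining one of those 4, H2-DMa, had ATTGG at -198 in 1 of its entries. The gamma-activated site TTCNNNGAA (in 8.30% of promoters) and the interferon-stimulated core GAAANNGAA (in 8.56%) were not matched in the windows of these 4 genes.

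In the GENCODE M21 annotation of mm10, 5 of the 7 genes lie in the class II region of chromosome 17: H2-DMa (chr17:34119541-34139101, plus strand), H2-DMb1 (chr17:34153072-34160230, plus strand), H2-Ab1 (chr17:34257689-34269419, plus strand), H2-Aa (chr17:34282744-34287823, minus strand) and H2-Eb1 (chr17:34305867-34316674, plus strand). Cd74 lies at chr18:60803848-60812652 and Ciita at chr16:10480059-10528418, both on the plus strand. H2-DMa shares exon bases with Brd2, and Ciita with Dexi, each on the opposite strand. Because the sources used here do not state how the counting treated strand or shared bases, counts of these pairs could be split or mixed. H2-DMb1 and H2-Eb1 have close relatives beside them, H2-DMb2 and H2-Eb2, and reads that fit both copies could likewise be placed in either.

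The libraries held 96587, 107031 and 114357 barcodes in WT, KO and KO_PBS, with 256852883, 352627863 and 178988562 UMIs and medians of 2261, 2980 and 1432 UMIs per barcode. The corneal epithelial keratin Krt12 had at least 1 UMI in all barcodes of WT and KO and in 114221 of KO_PBS, so its presence did not set epithelial barcodes apart. Between 5.50% and 5.95% of the barcode sequences of a library were also listed in another, and leaving them out changed none of the calls on the 7 genes over all barcodes. Aire itself had 15, 27 and 68 UMIs in WT, KO and KO_PBS, levels of 0.0586, 0.0768 and 0.382 CPM. Because the deleted part is not given, these 3′ tags do not check the genotype.

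Over all barcodes, all 7 class II genes passed the rule as higher in KO, where 20.6% of the 20252 genes with enough UMIs in KO and WT did. The median of the 7 log2 ratios was 4.93, against 0.24 for all genes, and 1.91% of the genes lay above it. Among the chains, H2-Aa stood at 20.7 CPM in WT (5310 UMIs), 613 in KO (215213 UMIs) and 703 in KO_PBS (125086 UMIs). Its fold in KO over WT was 29.5 (28.7 to 30.3). H2-Ab1 stood at 22.9, 697 and 531 CPM in the same order, a fold of 30.4 (29.7 to 31.2) in KO over WT. H2-Eb1 stood at 23.1, 707 and 661 CPM, a fold of 30.6 (29.8 to 31.4). The 3 chains thus had nearly the same fold, and WT was far below both knockout libraries for each. Because a library sums all its nuclei, more cells with these RNAs and more of them per cell cannot be told apart in these totals.

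Cd74, the invariant chain, stood at 66.0 CPM in WT (16889 UMIs), 2120 in KO (744933 UMIs) and 1913 in KO_PBS (340111 UMIs), a fold of 32.1 (31.6 to 32.6) in KO over WT. The H2-DM genes had the smallest folds of the 7. H2-DMa stood at 7.10, 73.0 and 92.0 CPM, a fold of 10.3 (9.81 to 10.8), and H2-DMb1 at 1.39, 29.7 and 25.4 CPM, a fold of 21.4 (19.2 to 23.8). As a result H2-DMa supplied 5.00% of the UMIs of the 7 genes in WT but 1.71% in KO and 2.32% in KO_PBS. Ciita, the coactivator, stood at 0.649 CPM in WT (166 UMIs), 23.7 in KO (8335 UMIs) and 33.5 in KO_PBS (5950 UMIs), a fold of 36.6 (31.4 to 42.9). Dexi, which shares exon bases with Ciita, stood at 12.6, 20.7 and 22.1 CPM. The plot of levels by library shows that WT was the lowest of the 3 libraries for each of the 7 genes.

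**Figure D1:**
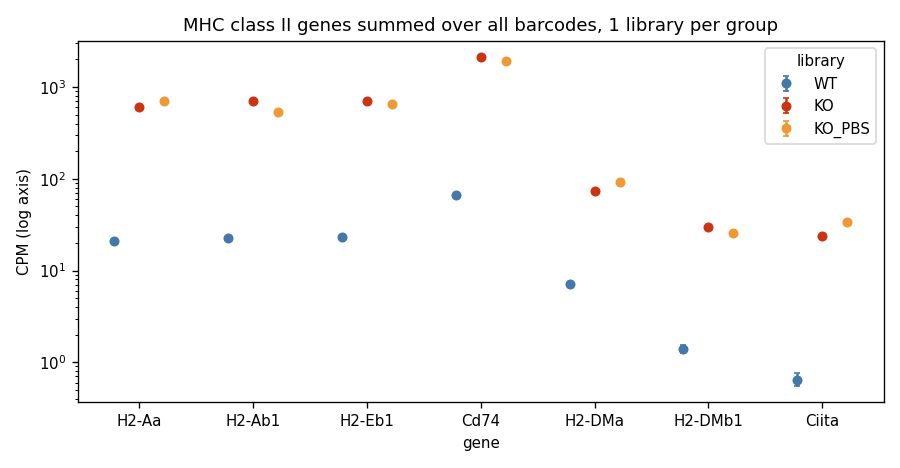
Level of each class II gene in each library, in CPM on a log axis; points are sums over all barcodes of 1 library and bars are 95% Poisson intervals, mostly smaller than the points. The WT points lie between 0.649 and 66.0, and each is more than 10 times below the KO point of the same gene.

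Between the knockout libraries the 7 genes kept within a factor of 2. None was higher in KO_PBS than in KO, where 39.9% of 22416 genes were, and none was lower, where 4.70% were. Of the 7, 3 had the higher level in KO_PBS: Ciita with a fold of 1.41 (1.36 to 1.46), H2-DMa with 1.26 (1.24 to 1.28) and H2-Aa with 1.15 (1.14 to 1.16). The other 4 had the higher level in KO, and their KO_PBS over KO folds were 0.935 for H2-Eb1, 0.902 for Cd74, 0.852 for H2-DMb1 and 0.761 (0.756 to 0.767) for H2-Ab1. The I-A chains therefore parted: H2-Ab1 had 1.10 UMIs per H2-Aa UMI in WT and 1.14 in KO, but 0.754 in KO_PBS. The scale bears on these directions, since the median log2 ratio of all genes was 0.63 and that of the 7 genes -0.10. Relative to the all-gene median each of the 7 was lower in KO_PBS, by 0.13 for Ciita and 1.02 for H2-Ab1 on the log2 scale at the ends of the range, and H2-Ab1 then passed the rule as lower. KO_PBS was counted on another gene list than WT and KO, and what that did to these small folds was not tested. Of the genes that overlap one of the 7, 2 were listed in WT and KO alone, both at H2-DMa, and they held 10 and 229 UMIs in KO against 25659 for H2-DMa.

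In KO_PBS against WT, all 7 were higher, where 57.0% of 22138 genes were and 4.06% were lower. The folds were 33.9 for H2-Aa, 23.2 for H2-Ab1, 28.6 for H2-Eb1, 29.0 for Cd74, 51.6 for Ciita, 12.97 for H2-DMa and 18.2 for H2-DMb1. Their median log2 ratio was 4.84, against 1.27 for all genes. This comparison shares its WT library with the first and is not independent of it.

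Beside the counts of the pathway lists that follow stand the shares over all genes, 20.6% higher and 8.63% lower in KO than in WT. Of the other chains of the pathway, all 4 that were in the files were above WT in KO by the rule of size, and their median log2 ratio was 5.84. H2-DMb2, the other H2-DM beta chain, went from 0.488 CPM in WT to 12.2 in KO, and stood at 12.4 in KO_PBS. H2-Oa and H2-Ob, the chains of the H2-DM inhibitor, rested on 20 WT UMIs each, with folds of 48.2 (31.1 to 79.2) and 67.9 (43.8 to 111). H2-Eb2 rested on 6 WT UMIs, with a fold of 124 (56.9 to 340).

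Of the 8 genes of peptide supply in the endosome that were in the files, 4 were above WT in KO and none was below it, where 8.63% of all genes were. The median log2 ratio was 1.16. Ctss, the protease that makes the last cuts in the invariant chain in antigen-presenting cells, stood at 13.3, 239 and 219 CPM, a fold of 18.0 in KO. March1, a ubiquitin ligase that removes class II molecules from the surface, stood at 6.70, 34.97 and 104 CPM and was higher again in KO_PBS than in KO, by 1.57 on the log2 scale, where the all-gene median was 0.63. The proteases Ctsb, with a KO over WT fold of 2.93, and Sppl2a, with 2.61, were the other 2. Ctsl, the protease that takes the place of Ctss in the thymic cortex, had a fold of 0.955, and Ctsd, Lgmn and March8 had folds of 1.69, 1.92 and 1.08.

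Of the 7 genes of factors that read the X and Y boxes, 2 were above WT in KO, a share near the 20.6% of all genes. These were Rfx5 with a fold of 2.18 and Creb1 with 2.54, and the median log2 ratio was 0.54. The folds of Rfxap, Rfxank, Nfya, Nfyb and Nfyc ran from 0.738 for Rfxap to 1.81 for Nfyc.

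Of 9 genes of interferon gamma signalling to Ciita, 5 were above WT in KO, and the median log2 ratio was 1.41. Ifng, the cytokine, had 1, 453 and 382 UMIs in the 3 libraries. Irf8, a macrophage and B cell factor, stood at 2.33, 45.2 and 89.8 CPM. Socs1, which restrains the receptor's kinases, had a KO over WT fold of 8.03, the kinase Jak2 3.60 and the receptor chain Ifngr1 2.66. Ifngr1 then fell by 1.38 on the log2 scale from KO to KO_PBS. Irf1, with a fold of 1.86, and Ifngr2, Jak1 and Usf1 did not pass the rule in KO against WT.

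All 5 partners on the cell surface were above WT in KO, and their median log2 ratio was 3.88. Cd4, the T cell receptor for class II molecules, stood at 0.203, 7.35 and 17.3 CPM, and Lag3, an inhibitory receptor for them, at 0.172, 4.50 and 11.8 CPM. Both were also higher in KO_PBS than in KO, by 1.23 and 1.39 on the log2 scale. Relative to the all-gene median of that comparison, March1, Cd4 and Lag3 stayed under a factor of 2. Cd86, Cd40 and Cd80, which give T cells the costimulatory signal or receive their help, had KO over WT folds of 14.7, 7.32 and 3.77.

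Markers of the cells that carry class II molecules moved with the 7 genes across the libraries, and their part in the result was not tested. The macrophage list summed to 60.3 CPM in WT, 845 in KO and 828 in KO_PBS, and 9 of its 10 genes were above WT in KO. Most of the KO sum came from C1qa, C1qb and C1qc, at 324, 236 and 129 CPM. Cx3cr1, the gene that did not pass, had a fold of 1.72. The dendritic list summed to 11.0, 67.8 and 80.8 CPM, with 10 of 10 higher in KO. The B cell list summed to 17.4, 122 and 120 CPM, with 7 of 8 higher. The T cell list, whose cells should lack class II RNA in mice, summed to 13.04, 135 and 128 CPM, with 8 of 8 higher. None of the markers in these lists was at 0 in any library. Other lists differed between the libraries too, and not always in the same order. The plasma cell list summed to 24.5, 1275 and 122 CPM and the neutrophil list to 5.98, 443 and 46.2 CPM in WT, KO and KO_PBS, so both sums were highest in KO. Between the knockout libraries, 5 of the 6 plasma cell genes passed the rule with KO_PBS below KO. Of the 5 neutrophil genes only S100a9 did. It stood at 5.28, 430 and 32.5 CPM and made up most of that list's sum. Tissue lists were highest in KO_PBS: lens with 575, 187 and 4501 CPM, melanocyte with 481, 139 and 4109 CPM, and muscle with 8.82, 14.4 and 126 CPM. The keratocyte list summed to 889, 2672 and 1753 CPM, and the epithelial list to 41916, 29877 and 17381 CPM. Krt12 alone gave 26121, 13793 and 6205 CPM of the epithelial sum. By the rule, KO stood above WT for 2 of the 6 epithelial genes and below it for none, with a median log2 ratio of -0.01. KO_PBS stood below KO for 4 of the 6. The libraries whose class II levels are compared therefore differed in their immune and in their tissue markers.

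Within a library, barcodes were called rich in a marker list when they had at least 2 of its UMIs and at least 3 times the library's share of them. They were set against reference barcodes with no UMI of any immune list, of which there were 70993 in WT, 724 in KO and 19370 in KO_PBS. Doublets were not removed, so some rich barcodes may hold more than 1 nucleus. In WT, 87 barcodes were rich in the macrophage markers Csf1r and Mrc1, with a median of 3865 UMIs. There, 6 of the 7 class II genes were higher than in the reference, where 5.37% of 16656 genes were. Cd74 stood at 502 CPM (441 to 569) against 55.6, a fold of 9.04, and H2-Aa at 193 CPM (156 to 236) against 17.3, a fold of 11.1. H2-Ab1 and H2-Eb1 had folds of 8.17 and 9.22, and H2-DMa 3.04 on 10 UMIs. H2-DMb1 had a fold of 13.6, on 7 UMIs, and Ciita had 0 UMIs there, which allows up to 6.15 CPM (3 UMIs, the one-sided 95% limit).

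The same comparison gave far smaller folds in the knockout libraries. Csf1r and Mrc1 were also spread more widely there, with at least 1 UMI in 21363 KO and 11726 KO_PBS barcodes against 1454 in WT. How many barcodes would pass the rule by chance was not tested. The rich barcodes of KO and KO_PBS thus need not be macrophage nuclei, and the smaller folds are not read as a property of macrophages. In KO, 3410 barcodes were rich in Csf1r and Mrc1, and none of the 7 genes was higher than in the reference, where 1.30% of 12417 genes were. At this share, none of 7 is no result about the 7 genes. Cd74 stood at 2347 CPM against 1908 in the KO reference, and the folds of the 7 ran from 1.06 for Ciita to 1.71 for H2-DMb1. In KO_PBS, 1009 barcodes were rich, and 1 of the 7 genes was higher, where 1.62% of 15747 genes were. That gene was Ciita, at 68.4 CPM (57.8 to 80.3) against 29.8 in the reference, a fold of 2.30. The other 6 had folds from 1.26 to 1.44. With 1.62% of all genes higher, 1 of 7 is likewise no result about the 7 genes as a set. Taken as a difference in place of a fold, Cd74 in macrophage-rich barcodes exceeded the reference by 446 ± 32.1 CPM in WT, 440 ± 38.3 in KO and 507 ± 34.9 in KO_PBS (± counting error). Against all other barcodes of the library, a comparison added after the data were seen, the excess was 437, 237 and 558 CPM. H2-Aa exceeded the reference by 175 ± 19.9, 127 ± 20.4 and 313 ± 22.3 CPM in the same order. Lens-rich barcodes of KO also exceeded the KO reference, by 235 ± 37.3 CPM. The difference between libraries in these folds had no replicate and was not tested. The excess also depended on the marker list and rule. A stricter rule asked for 3 marker UMIs and 5 times the library share. For the macrophage list of 10 genes it gave 162 KO barcodes with Cd74 at 5822 CPM, 2.75 times the library level. For Csf1r and Mrc1 alone it gave 550 KO barcodes with Cd74 at 2484 CPM, 1.17 times the library level. With every barcode that had at least 1 UMI of Csf1r or Mrc1, Cd74 stood at 147 CPM in 1454 WT, 2240 in 21363 KO and 1988 in 11726 KO_PBS barcodes.

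Keratocyte-rich barcodes, with Kera and Lum, the proteoglycans of the corneal stroma, came to 5115 barcodes of WT, 4072 of KO and 4323 of KO_PBS. None of the 7 genes passed the rule against the reference in any of the 3 libraries, where 2.47%, 1.16% and 0.245% of all genes were higher in WT, KO and KO_PBS, and 0.0590%, 0.0758% and 0.147% lower. At these shares, 0 of 7 is no result about the 7 genes. The folds ran from 1.35 to 1.88 in WT, from 0.847 to 1.79 in KO and from 0.933 to 1.13 in KO_PBS. With at least 1 UMI of Kera or Lum, Cd74 stood at 74.4 CPM in 23665 WT, 2129 in 80319 KO and 1866 in 28331 KO_PBS barcodes. Krt12 was spread over nearly all barcodes, and no barcode of WT or KO was rich in it by this rule, against 118 of KO_PBS. Cd74 stood there at 1105 CPM (989 to 1231), 0.578 times the KO_PBS library level.

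Between libraries, the level of the whole library has to be read beside that of each class. From WT to KO, Cd74 went up 34.3-fold in the reference barcodes and 31.7-fold in lens-rich barcodes. Lens fibres should lack class II RNA, but lens-list UMIs were spread widely. At least 1 was in 66.5% of WT, 41.7% of KO and 99.6% of KO_PBS barcodes outside the class II-rich ones described below. Lens-rich barcodes thus need not be lens nuclei, which was not tested. Cd74 was 25.5-fold higher in keratocyte-rich and 4.68-fold higher in macrophage-rich barcodes. Both folds were smaller than those of reference and lens-rich barcodes, so they are not read as a change in keratocytes or macrophages. By the rule of size, 6 of the 7 genes were higher in macrophage-rich barcodes of KO than of WT, where 11.9% of 12315 genes were, and H2-DMb1, at 30.3 against 14.3 CPM, did not pass. Ciita was at least 4.62-fold higher, against the floor of 3 UMIs over the WT barcodes, and was 46.4-fold higher in the reference. Keratocyte-rich barcodes had all 7 higher, where 17.6% of 13434 genes were, with folds from 8.16 for H2-DMa to 29.0 for Ciita, against 10.2 and 46.4 in the reference. In KO_PBS against WT, 6 of 7 were higher in macrophage-rich barcodes, where 32.9% of 8342 genes were, and 7 of 7 in keratocyte-rich ones, where 40.1% of 14064 were. Cd74 had folds of 4.91 and 22.2 there, against 35.2 in the reference and 26.9 in lens-rich barcodes. Between the knockout libraries, Ciita in macrophage-rich barcodes was the single call in these classes, 2.41-fold higher in KO_PBS than in KO, where 19.3% of 13050 genes were higher and 4.84% lower. Relative to the all-gene median of these barcodes, its log2 ratio was 0.94 in place of 1.27 and did not pass. In keratocyte-rich barcodes 0 of 7 passed, where 20.5% of 13877 genes were higher and 4.15% lower.

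The plot of Cd74 by marker class shows the gene's spread in each library under the main rule. In WT, barcodes rich in the macrophage, neutrophil, dendritic and vascular endothelial lists had Cd74 at 228, 336, 238 and 151 CPM, 3.46, 5.08, 3.61 and 2.29 times the library level. Those rich in the B cell list had 74.9 CPM, 1.14 times, and lens-rich ones 67.6 CPM, 1.02 times. In KO, the classes ran from 0.942 times for the neutrophil list to 1.70 times for the macrophage list of 10 genes. In KO_PBS, melanocyte-rich barcodes were low as the Krt12-rich ones were, with Cd74 at 1093 CPM, 0.571 times the library level, over 183 barcodes.

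**Figure D2:**
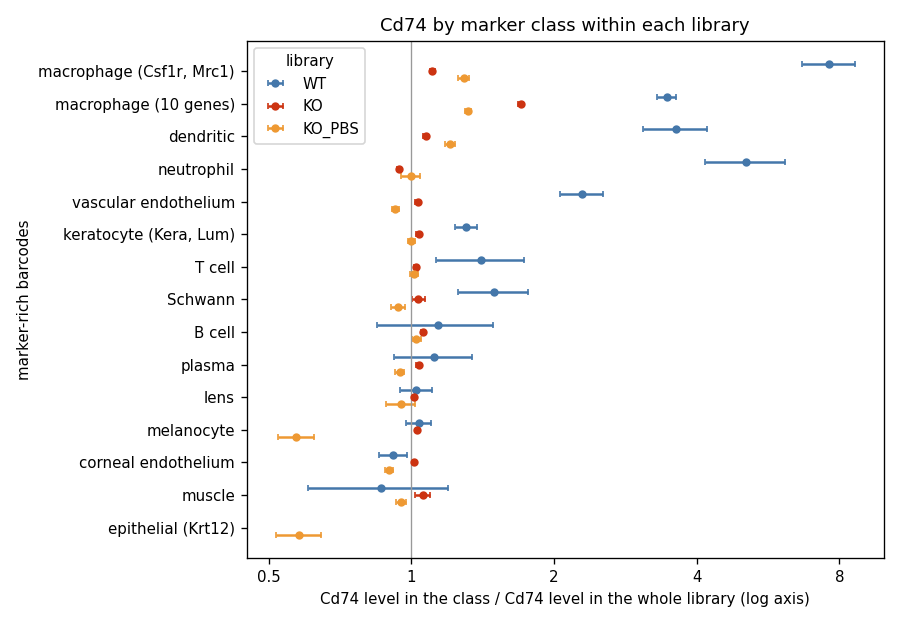
Cd74 level in marker-rich barcodes divided by the Cd74 level of the whole library, on a log axis, with bars from 95% Poisson intervals of the class; classes under 20 barcodes are not drawn. In WT the macrophage class (Csf1r, Mrc1) lies at 7.61 and the lens class at 1.02, whereas the KO classes lie between 0.942 and 1.70.

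Ciita varied between the classes of KO_PBS, and not in those of antigen-presenting cells alone. It stood at 68.4 CPM in macrophage-rich, 63.3 in dendritic-rich and 55.0 in B cell-rich barcodes, against 32.5 (17.8 to 54.6, on 14 UMIs) in lens-rich and 29.8 in reference barcodes. T cell-rich barcodes, whose cells should lack it, had 44.5 CPM (39.2 to 50.3), and vascular endothelium-rich ones 46.5 CPM (41.4 to 52.0), both above the library's 33.5. With the stricter rule, it stood at 112 CPM in 163 macrophage-rich barcodes and 88.3 CPM in 607 B cell-rich ones. By the same rule it stood at 63.1 CPM (50.9 to 77.2) in 613 T cell-rich and 57.9 CPM (46.8 to 70.8) in 660 vascular endothelium-rich barcodes. Schwann-rich and muscle-rich barcodes had 52.5 and 43.7 CPM, on 17 and 32 UMIs, with intervals that included the library level. The T cell-rich and vascular endothelium-rich barcodes of this rule had medians of 2186 and 2227 UMIs, against 1432 in the library. Ciita rose with barcode depth in KO_PBS, as given below, and the part of depth in these levels was not tested. In KO, Ciita stood at 28.4, 30.1 and 28.4 CPM in macrophage-rich, dendritic-rich and B cell-rich barcodes under the main rule. Lens-rich barcodes of KO had 22.0 CPM, the reference 26.6 (on 39 UMIs) and the library 23.7. With the stricter rule the 3 classes had 30.7 (24.2 to 38.3), 33.4 (25.1 to 43.6) and 32.4 (27.7 to 37.7) CPM. Schwann-rich barcodes of KO had 43.4 CPM (25.3 to 69.5, on 17 UMIs) by that rule, and muscle-rich ones 34.3 (14.8 to 67.6, on 8 UMIs). T cell-rich and vascular endothelium-rich ones had 27.8 and 26.0 CPM.

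Levels also varied with the number of macrophage-list UMIs in a barcode. In WT, Cd74 went from 56.9 CPM in the 84492 barcodes with none to 395 in 123 barcodes with 5 to 9 and 1051 (926 to 1188) in 31 barcodes with at least 10. H2-Aa went from 17.8 to 290 CPM over the same range, and H2-DMa from 6.73 to 53.8 CPM. In KO, Cd74 went from 1876 to 2963 CPM, and in KO_PBS from 1912 to 4990 CPM, the last over 152 barcodes. Ciita in KO_PBS went from 30.3 to 147 CPM. The median depth rose along this scale as well, from 2231 to 6499 UMIs per barcode in WT and from 1274 to 3038 in KO_PBS, and its part was not tested.

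**Figure D3:**
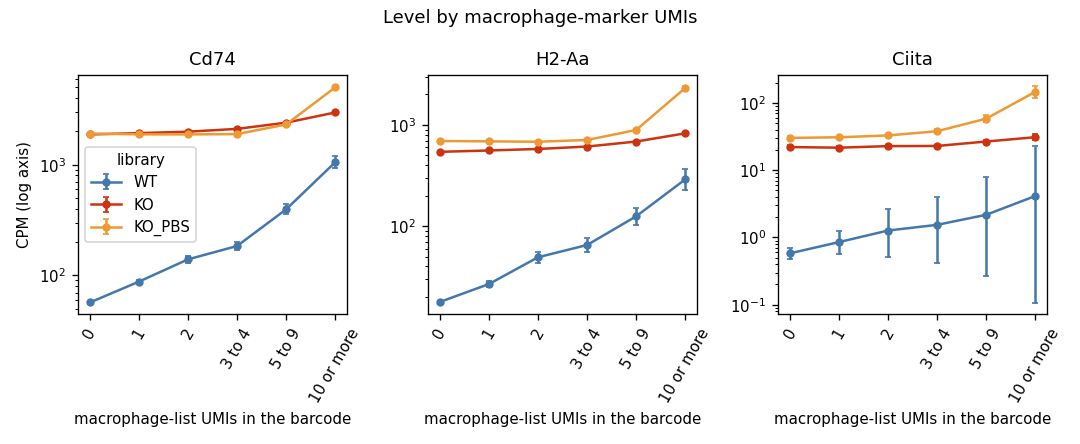
Level of Cd74, H2-Aa and Ciita (CPM, log axis) in barcodes grouped by their UMIs of the macrophage list of 10 genes, with 95% Poisson intervals. Cd74 spans 56.9 to 1051 in WT but 1876 to 2963 in KO, and Ciita in WT rests on 1 UMI in the last group.

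Nearly every barcode of the knockout libraries had class II RNA. With each barcode thinned to 1000 UMIs (leaving out 265, 226 and 16860 shallower barcodes in WT, KO and KO_PBS), 11.3% of WT, 97.5% of KO and 97.4% of KO_PBS barcodes had at least 1 UMI of the 7 genes. Without thinning the shares were 23.7%, 99.9% and 99.1%. Crystallins are proteins of lens fibres, which should lack class II RNA. In barcodes rich in them, the thinned shares were 11.3%, 97.7% and 97.0%, at median depths of 2030, 2991 and 1275 UMIs. These barcodes need not be lens nuclei, since lens-list UMIs were spread widely. Macrophage-rich barcodes had 41.4% (30.9 to 52.4) in WT, 98.0% in KO and 97.5% in KO_PBS, at median depths of 3865, 3868.5 and 1870 UMIs. The library-wide shares did not exceed those of lens-rich barcodes beyond counting error in WT and KO, so no share of expressing nuclei is read from them. The same holds for KO_PBS, where the interval of the lens-rich share ran from 93.6% to 98.9%.

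Barcodes with at least 5 UMIs of the 7 genes and at least 5 times the library's share came to 632, 16 and 53 in WT, KO and KO_PBS, and held 18.3%, 0.0756% and 0.418% of the UMIs of the 7 genes. These cuts use the class II UMIs themselves, so class II levels in these barcodes are no finding. The library share that a barcode had to exceed 5 times was itself 0.0142%, 0.426% and 0.396% of the UMIs of WT, KO and KO_PBS, so the numbers of such barcodes are not compared between libraries.

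Class II-rich barcodes had more UMIs of macrophage genes than the others did. The macrophage list stood at 365 CPM in them against 57.1 elsewhere in WT, 4768 against 844 in KO, and 4639 against 825 in KO_PBS, ratios of 6.39, 5.65 and 5.62, the one of KO over 16 barcodes. With at least 3 times the library's share in place of 5 (698, 309 and 543 barcodes), the ratios were 5.46, 3.40 and 3.03. The dendritic list had ratios of 2.48 (71 UMIs), 2.96 (9 UMIs) and 3.97 (38 UMIs), and 2.13, 2.03 and 3.18 at this lower limit. Under the main rule the B cell list had 0.785 (36 UMIs) in WT, 0 UMIs in KO and 0.704 (10 UMIs) in KO_PBS. The B cell list had 0.756 (81 UMIs) in KO at the lower limit. Ratios of some other lists also moved by more than 1.5 times between settings, as the macrophage ratios of KO and KO_PBS did. The vascular endothelial list had 3.13 in WT, but 1.37 (39 UMIs) without the 5% of barcodes with the most UMIs, where the dendritic list had 2.54. The lens list had 2.63 (22 UMIs) in KO and 1.06 at the lower limit, and the neutrophil list 2.92 (16 UMIs) in KO_PBS and 1.46. Without the 5% of barcodes with the most UMIs, the neutrophil list had 4.29 (12 UMIs) in KO_PBS. In WT it had 2.12 (33 UMIs) under the main rule. Single genes were ranked if they had at least 50 UMIs in the class II-rich barcodes of WT and of KO_PBS. KO had under 20 such barcodes and was left out. This filter lets genes in through their level in these same barcodes, so the ranking is a description only. The 284 genes that passed were ranked by the lower of the folds in WT and KO_PBS. The 10 leading ones were Lyz2, Ccl8, Tyrobp, C1qb, Laptm5, Fcer1g, C1qc, C1qa, Aif1 and Ctss. C1qa, C1qb and C1qc are also in the macrophage list, so their ranks and its ratios rest in part on the same UMIs. Lyz2, lysozyme of myeloid cells, stood at 487 CPM against 34.9 elsewhere in WT and at 4370 against 539 in KO_PBS. C1qa, a subunit of the complement component C1q made by macrophages, stood at 132 against 19.2 CPM in WT and 2105 against 402 in KO_PBS. The chemokine Ccl8 stood at 39.1 against 3.71 CPM in WT and 2063 against 260 in KO_PBS.

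Within each library the level also varied with the depth of the barcode, and Ciita went the other way from the rest in KO_PBS. From the lowest 25% of barcodes by UMIs to the highest 5%, Cd74 went from 2186 to 1517 CPM in KO_PBS, from 2183 to 2126 in KO and from 66.6 to 80.7 in WT. H2-Aa went from 780 to 587 CPM in KO_PBS. Ciita went from 26.9 (25.01 to 28.98) to 40.1 (37.4 to 42.9) CPM in KO_PBS and from 21.6 to 26.8 in KO.

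**Figure D4:**
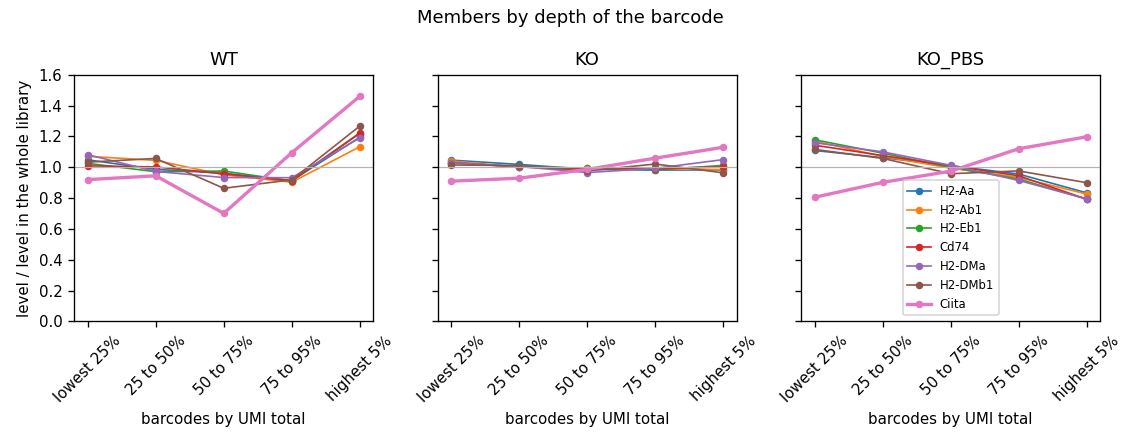
Level of each class II gene in 5 groups of barcodes by UMI total, divided by its level in the whole library, for WT, KO and KO_PBS. In KO_PBS, Ciita goes from 0.805 to 1.20 while Cd74 goes from 1.14 to 0.793; in WT the Ciita points rest on 22 to 50 UMIs each.

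The chromosome 17 stretch from H2-Oa to H2-Eb2 (chr17:34092340-34341412) holds 17 listed genes, 5 of them among the 7 followed here. The other 12, a set of neighbours added after the data were seen, were also all above WT in KO, where 20.6% of all genes were. Among them, H2-Eb2 and the antisense RNA Gm20496 had only 6 and 13 WT UMIs. The neighbours of class I presentation had smaller folds than the class II genes. The immunoproteasome subunits Psmb8 and Psmb9 had 3.03 and 3.89, and the peptide transporter chains Tap1 and Tap2 had 7.11 and 4.28. Brd2, a bromodomain gene that shares exon bases with H2-DMa, had 2.27, and was also higher in KO_PBS than in KO, by 1.01 on the log2 scale, though not relative to the all-gene median. Gm20513, an antisense RNA that overlaps H2-Eb1, had 20.1 in KO over WT, on 61 WT UMIs, and fell by 2.15 on the log2 scale from KO to KO_PBS, while H2-Eb1 had a log2 ratio of -0.10.

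**Figure D5:**
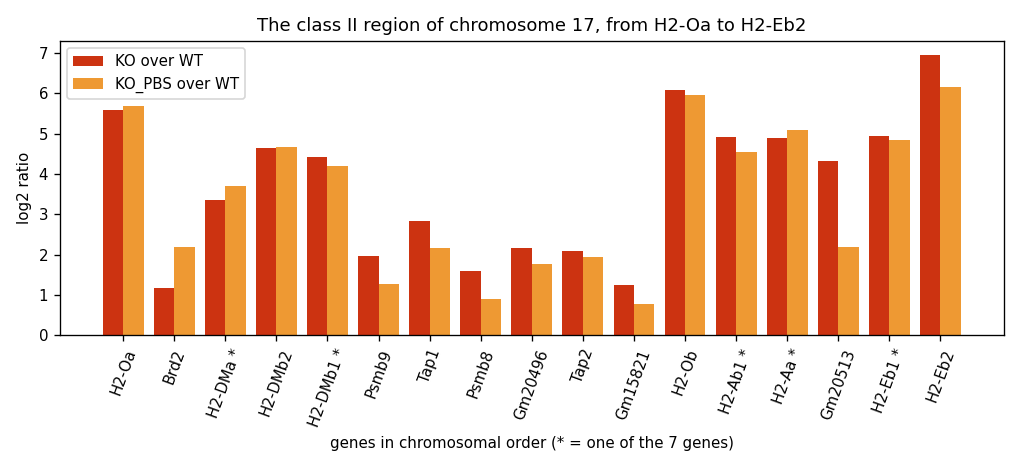
Log2 ratios of KO over WT and KO_PBS over WT for the 17 listed genes from H2-Oa to H2-Eb2, in chromosomal order and not to scale, from UMIs summed over 1 library per group. All bars are above 0, the class II genes from 3.36 upward and the Psmb and Tap genes from 0.89 to 2.83.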

How the data were processed

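The deposited values are unnormalized UMI counts for each gene in each barcode of 3 libraries made with the 10x Genomics 3′ kit, per the labels' protocols. Per the file headers, Cell Ranger 7.0.1 made these counts, on mm10 per the submitters' processing notes. The annotation, the treatment of introns and strand, and the barcode filter are not given in the sources used here. WT and KO list 32285 genes and KO_PBS 31053. The 30406 shared Ensembl IDs were used, which held at least 99.3% of the UMIs of each library.

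Counts were summed over all barcodes or marker-rich barcodes and divided by the total, and counts under 3 were set to 3 in ratios. The rule of size was applied to all genes. It was tried on simulated Poisson counts with known folds, which cover counting error but not differences between animals or in tissue make-up. No count model was fitted, since there was 1 library per group. No doublet caller was run. The named genes were the 7 genes, 39 listed genes of the pathway in 5 lists, of which 34 were in the files, and the 10 genes leading the class II-rich barcodes. 1 listed gene is not reported here and was left out of its list's count and median. The 7 genes, the lists and the rules were chosen with earlier results of these data known. Software was pandas 2.3.3, scipy 1.17.1, numpy 2.4.6 and matplotlib 3.10.9 under python 3.11.15. Alternatives were other scalings, gene lists, barcode filters, UMI minimums, marker rules, thinning depths and class II-rich limits.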

Additional observations from a re-analysis of the deposited data

How the results depend on the processing

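All KO over WT and KO_PBS over WT ratios of the 7 genes kept direction and call in 56 of 56 values over 8 alternatives. The log2 ratios of KO over WT ran from 3.12 to 3.40 for H2-DMa, from 4.76 to 5.06 for Cd74 and from 4.95 to 5.29 for Ciita. Those of KO_PBS over WT moved more, from 2.43 to 3.78 for H2-DMa, from 3.59 to 5.04 for Cd74 and from 4.42 to 5.77 for Ciita, each lowest with centring on the all-gene median. In KO_PBS over KO, 55 of 56 kept the call. Centring on the all-gene median made H2-Ab1 lower (-1.02), so that 1 of the 7 was lower, and turned the sign, without a call, of H2-Aa to -0.43, Ciita to -0.13 and H2-DMa to -0.30. With only low-UMI barcodes, H2-Eb1 went to 0.10 and Cd74 to 0.00.

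Over all genes, centring gave 2891 lower in KO_PBS than in KO, against 1053, and 6558 higher in KO_PBS than in WT, against 12609. Low-UMI barcodes alone gave 4956 higher in KO_PBS than in KO, against 8942, and 7641 higher than in WT; fewer UMIs entered these counts. The log2 ratio of the 7 genes summed, in WT macrophage-rich barcodes over the reference, was 3.15 and ran from 1.36, with 1 marker UMI, to 3.66, with the stricter rule. In KO it was 0.30 and ran from 0.15, against all other barcodes, to 0.93, with the wider marker list. In KO_PBS it was 0.43 and ran from 0.05, with 1 marker UMI, to 0.98, with the stricter rule. The wider marker list combined with the stricter rule was not among these settings and lay above both of these upper ends. The 7 genes summed stood there at 11490 CPM in KO (162 barcodes) and 9172 CPM in KO_PBS (508 barcodes). The share of barcodes with a UMI of the 7 genes went to 19.3%, 99.9% and 99.4% in WT, KO and KO_PBS when thinned to 2000 UMIs, and was 23.7%, 99.9% and 99.1% unthinned.

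Class II-rich barcodes numbered 180, 0 and 2 in WT, KO and KO_PBS at 10 UMIs and 10 times the share, against 632, 16 and 53. At 3 times they numbered 698, 309 and 543. The wider lists, the other reference, the region's genes, the centring within marker-rich barcodes (41 of 42 calls kept) and the removal of shared barcodes were chosen after seeing the data. No paired analysis was possible because each group had 1 library, and for the same reason no library could be left out. Of the 7 genes, Ciita had the fewest UMIs in WT, 166 in all.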
